A study of Homo sapiens with 12 samples.

Results

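Notch signalling in this study was described through 10 genes: the receptors NOTCH1, NOTCH2 and NOTCH3, the ligands JAG1, JAG2 and DLL1, the receptor glycosyltransferase LFNG, the nuclear coactivator MAML2 and the target genes HES1 and HEY1. They were chosen by name, as textbook components of the pathway, and were found by their Entrez identifiers among the 23459 gene entries of the count table. Of the 10 genes, 8 had enough reads to be tested, and NOTCH3 and DLL1 did not. The cells were MCF10A, a non-tumorigenic line of human mammary epithelium, and all of them carried a YAP5SA allele that doxycycline switches on. YAP5SA is a form of the coactivator YAP that can no longer be shut off by the Hippo pathway. The cells had been infected either with an empty vector or with a vector that overexpresses JUN, a subunit of the transcription factor AP-1, and were then given 100 ng/ml doxycycline or its solvent, ethanol. The 4 groups are named vector EtOH and vector Dox for cells with the empty vector and JUN EtOH and JUN Dox for those with the JUN vector, with 3 libraries in each and 12 in all. Every group thus held infected cells of the same inducible line, and cells without the YAP5SA construct were not analysed here. Doxycycline and YAP5SA cannot be told apart in this design.

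Notch receptors are cut by furin on their way to the cell surface and pair there with Jagged and Delta-like ligands on neighbouring cells. Ligand binding leads to a cut by ADAM proteases and then by gamma-secretase, which frees the intracellular domain. In the nucleus this domain joins RBPJ and a Mastermind-like coactivator and switches on genes of the HES and HEY families, which encode transcriptional repressors. In the mammary gland the pathway is known for its part in the choice between basal and luminal cell fates, and some of its genes, JAG1 among them, are known targets of YAP in other settings.

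The promoters of the pathway's genes were searched for the letters GTGGGAA, a core of the site that RBPJ binds. The HES1 and HES4 promoters are shown because both hold these letters close to the start site, while their transcripts moved in opposite directions when YAP5SA was induced. Each sequence runs from 150 bases before the RefSeq start site to the base just before it, 5′ to 3′ along the gene's own strand, in the build GRCh38.p14, and the capitals mark the letters GTGGGAA. HES1 was read at chr3:194135998-194136147 on the plus strand and HES4 at chr1:1000098-1000247 on the minus strand.
HES1: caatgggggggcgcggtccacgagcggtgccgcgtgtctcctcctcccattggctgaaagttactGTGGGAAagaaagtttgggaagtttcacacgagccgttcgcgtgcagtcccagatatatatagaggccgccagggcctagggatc
HES4: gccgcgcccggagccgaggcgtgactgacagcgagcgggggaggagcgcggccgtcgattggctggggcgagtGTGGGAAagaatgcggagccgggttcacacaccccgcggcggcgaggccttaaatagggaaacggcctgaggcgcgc
The first base of the match lay 85 bases before the start site in HES1 and 77 bases before it in HES4. The longest run of letters that both promoters shared was tgtgggaaagaa, 12 bases that include the match. The G and C content of these 150 bases was 58.7% in HES1 and 71.3% in HES4.

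Over the window of 250 bases before to 50 bases after each start site, with both strands read, 6.25% of all 35116 RefSeq promoters held GTGGGAA. Of the 10 genes, 8 had a promoter in the RefSeq table, and HES1 was the one that held these letters. Among the other genes of the pathway, 39 had 52 promoters in all, and 6 of the 39 held the letters in at least 1 promoter. These were HES4, HES5, HEY2, HEYL, RBPJ and SPEN. Such counts are of genes, whereas the 6.25% is a share of promoters. Neither GGAATG, letters of the TEAD site through which YAP reaches DNA, nor TGANTCA, letters of the AP-1 site that JUN binds, occurred in the promoters of the 8 genes. GGAATG was found in 14% of all promoters and TGANTCA in 7.71%, and the first motif can overlap the TEAD letters by sharing GGAA. A match is a stretch of letters and not a measured binding site.

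Total counts ran from 18594867 to 28993487 per library, so that 3 counts, taken as the lowest level that can be told from 0, corresponded to 0.107 to 0.150 CPM, the unit of counts scaled to library size. Such a floor and the intervals given for low genes hold for counting error alone, as single molecules were not tagged. JUN checked the labels: its mean was 47.6 CPM ± 10.5 (SD, n = 3) in vector EtOH and 1278 CPM ± 187 in JUN EtOH, against 189.6 CPM ± 4.15 in vector Dox and 1248 CPM ± 92.2 in JUN Dox. Reads of YAP1 cannot separate the YAP5SA transcript from the endogenous one. Its means were 179 CPM in vector EtOH and 236 CPM in vector Dox, against 234 CPM in JUN EtOH and 280 CPM in JUN Dox. By the edgeR test described below, YAP1 was not called in any of the 4 pairwise comparisons (adjusted p from 0.0755 to 0.308). All 6 markers of basal mammary epithelium were above 1 CPM in all groups, and their summed level was 7320 to 7710 CPM in vector EtOH and 5590 to 7200 CPM in JUN EtOH, against 3730 to 4700 CPM in vector Dox and 3240 to 5350 CPM in JUN Dox. In bulk RNA, fewer cells of a type and less RNA per cell cannot be told apart. Of the 7 fibroblast markers 3 or 4 passed 1 CPM per group, with sums of 111 to 162 CPM, of the luminal markers 2 of 5 did, and of the 3 immune markers CD68 alone did, with means of 28.9 and 18.2 CPM in the vector groups and 84.8 and 62.3 CPM in the JUN groups, while PTPRC and CD3E were at or near 0. The part of these markers in the results was not tested. Vector Dox replicate 1 stood apart from the other 2 libraries of its group. Transcript GC content moved with the level in opposite directions in replicates 1 and 3 of both JUN groups. The correlations across genes were -0.353 and 0.361 in JUN Dox and -0.197 and 0.224 in JUN EtOH.

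The design gives 4 pairwise comparisons and the difference between both inductions. The comparisons share groups, so they are not independent of each other. A gene was called when edgeR's quasi-likelihood test gave a Benjamini-Hochberg adjusted p under 0.05 over the 14775 genes tested. The p-values rest on the spread between libraries within groups, estimated over all 12 libraries and with information shared across genes. Leaving out a library of a group that is not compared can therefore change a call. The study describes the 3 libraries of a group as biological replicates.

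YAP5SA induction in vector cells lowered the target genes HES1 and HEY1 and the ligand JAG1, and the ligand JAG2 was slightly higher. These were 4 of 8 tested genes, 1 higher and 3 lower, where 30.1% of all genes were called, 15.6% higher and 14.4% lower. The count was 2 of these 8 without vector EtOH replicate 3, vector Dox replicate 2 or vector Dox replicate 3. With only the libraries compared it was 2 of 7, since HEY1 failed the filter on low counts there. The median log2 fold change of the 8 genes was -0.41, beside 0.01 over all genes. The 3 libraries of each group did not overlap in 3 of the 8 genes, where this held for 43.9% of all genes. In JUN cells the induction lowered HES1, JAG1 and LFNG and raised JAG2, again 4 of 8, where 21.4% of all genes were called, 11.2% higher and 10.3% lower. The median of the 8 was -0.44 there, beside 0.003 over all genes. Here 6 of the 8 genes did not overlap, beside 39.3% of all genes.

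Without induction, the JUN vector went with lower JAG2, NOTCH1 and HES1 and with higher MAML2. That made 4 of 8 genes, 1 higher and 3 lower, where 39.0% of all genes were called, 20.1% higher and 18.9% lower. The count was 2 of these 8 without vector EtOH replicates 1 or 2 or JUN EtOH replicate 1, and 1 without JUN EtOH replicate 2. Groups that did not overlap were found in 5 of the 8 genes, beside 57.8% of all genes. With YAP5SA induced, cells with the JUN vector had more JAG1, MAML2, HES1 and HEY1 than cells with the empty vector, and less JAG2 and LFNG. These were 6 of 8 genes, 4 higher and 2 lower, where 35.6% of all genes were called, 18.4% higher and 17.2% lower. Without vector Dox replicate 3 the count was 3. It was also 3 with only the libraries compared, where HEY1 failed the filter on low counts. The groups did not overlap in 6 of the 8, beside 43.4% of all genes. The median log2 fold change of the 8 genes was -0.14 without and 0.25 with induction. Without vector Dox replicate 1, the library that stood apart, 3 of the 8 genes were called for induction in vector cells, where HEY1 was lost, and 4 for that in JUN cells. For the JUN vector 4 were called without and 6 with induction, the latter with NOTCH1 in place of HEY1. The induction differed between both cell types in HES1 alone, 1 of 8 genes, where 1.12% of all genes were called, 0.291% higher and 0.826% lower.

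**Figure D1:**
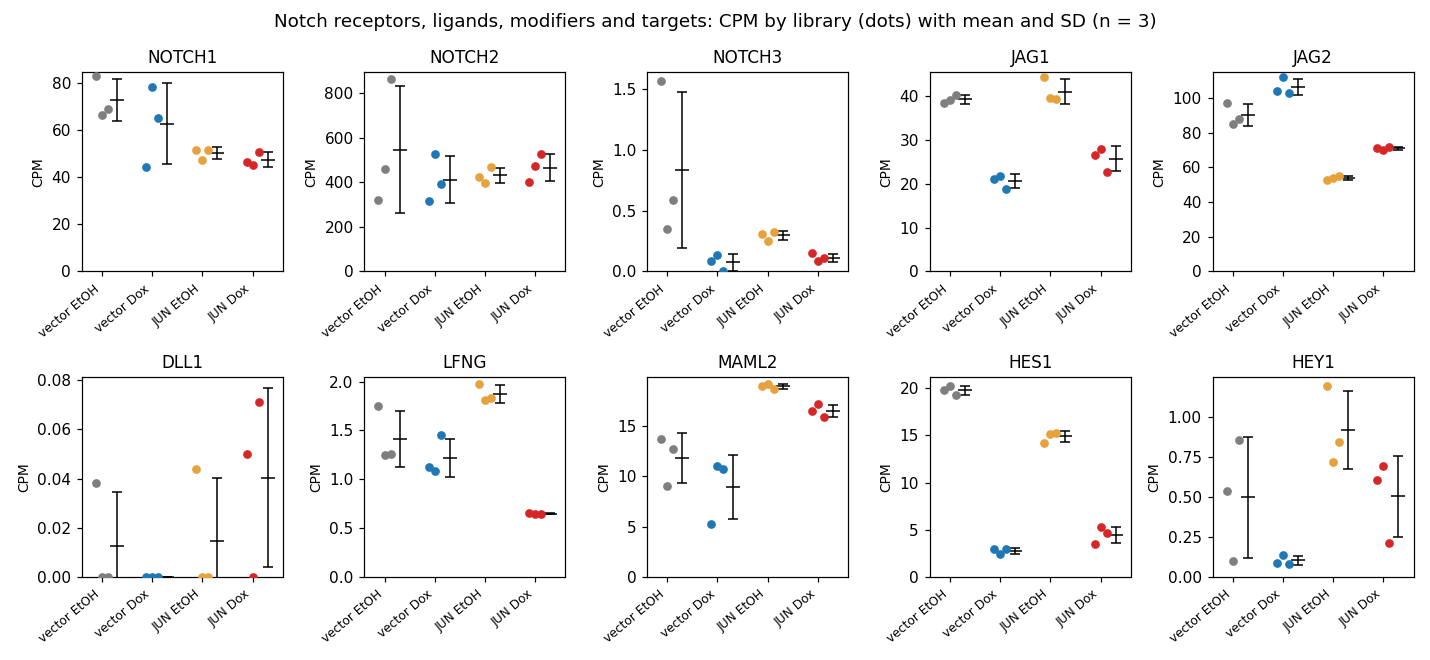
Level of each of the 10 genes in CPM on a linear axis from 0, with 1 dot for each of the 12 libraries and a black bar for the mean and SD of the 3 libraries of a group. HES1 and JAG1 sat lower in both Dox groups, JAG2 sat lower in both JUN groups, and the 3 JUN Dox libraries of LFNG lay below all others.

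**Figure D2:**
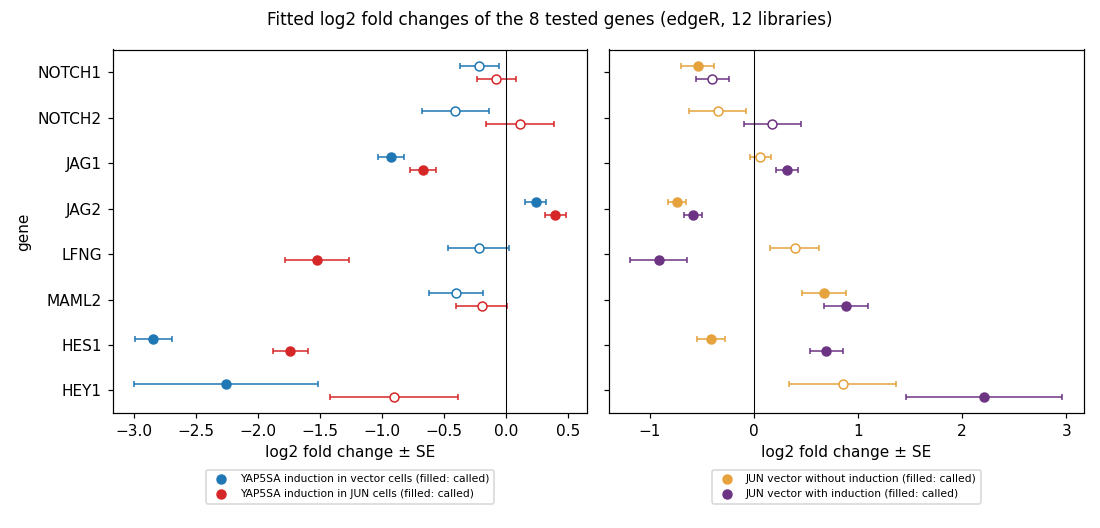
Fitted log2 fold changes of the 8 tested genes with their standard errors, for YAP5SA induction on the left and for the JUN vector on the right, with filled dots where the adjusted p was under 0.05. On induction HES1 lay at -2.85 in vector cells and at -1.74 in JUN cells, and NOTCH2 was not called in any of the 4 comparisons.

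Of the receptors, NOTCH1 was called in 1 comparison and NOTCH2 in none. NOTCH1 (Entrez 4851), a receptor that is active in many epithelia, spans chr9:139388885-139440500 on the minus strand in GRCh37. It stood at 82.8, 66.4 and 69.1 CPM in vector EtOH and at 51.6, 47.3 and 51.7 CPM in JUN EtOH. After induction it stood at 44.3, 78.4 and 65.3 CPM in vector cells and at 46.4, 45.2 and 50.9 CPM in JUN cells. Every JUN EtOH library lay below every vector EtOH library, whereas vector Dox replicate 1 was below all 6 JUN libraries. The JUN vector without induction went with a NOTCH1 log2 fold change of -0.54 (SE 0.16, adjusted p = 0.0154). This call was lost with a correction for GC content (-0.34, adjusted p = 0.102), without vector EtOH replicate 1 (adjusted p = 0.0683) and without JUN EtOH replicate 2 (adjusted p = 0.0606). The transcripts of NOTCH1 hold 63.3% G and C.

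With induction, the NOTCH1 log2 fold change of the JUN vector was -0.40 (SE 0.16, adjusted p = 0.0621), which did not pass the test. Leaving out vector Dox replicate 1 gave -0.59 and an adjusted p of 0.00117. YAP5SA induction gave NOTCH1 values of -0.22 in vector cells (adjusted p = 0.333) and -0.08 in JUN cells (adjusted p = 0.788), neither of which was called.

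NOTCH2 (Entrez 4853, chr1:120454176-120643366, minus strand, GRCh37) had the highest level of the receptors per length, with a mean of 32.6 CPM per kilobase of exon in vector EtOH beside 5.81 for NOTCH1. Its libraries gave 318, 457 and 864 CPM in vector EtOH. The vector Dox libraries gave 316, 525 and 392 CPM, the JUN EtOH libraries 424, 398 and 468, and the JUN Dox libraries 400, 471 and 524. All 4 groups overlapped. The log2 fold change was -0.41 (adjusted p = 0.284) for induction in vector cells and 0.11 (adjusted p = 0.822) in JUN cells. Both the induction value in vector cells and the value of the JUN vector without induction (-0.35, adjusted p = 0.331) changed sign without vector EtOH replicate 3, to 0.08 and 0.16.

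Part of the NOTCH2 reads may belong to a copy. NOTCH2NLA, a human-specific gene that arose from the 5′ part of NOTCH2, is nearly identical to it there, and short reads of either may be placed on the other. Its mean count of 9184 was close to the 10660 of NOTCH2. The exons of NOTCH2NLA overlap those of NBPF10 on the same strand, which had a mean count of 20230. Reads counted for NOTCH2NLA may therefore also belong to NBPF10, and its values below carry this limit. Vector EtOH replicate 3 was the highest library for both genes, with 1150 CPM of NOTCH2NLA beside 864 CPM of NOTCH2. The ratio of NOTCH2NLA to NOTCH2 counts went from 0.445 in JUN Dox replicate 1 to 1.33 in vector EtOH replicate 3, so the NOTCH2 level is uncertain. With both genes summed, an alternative chosen after the data were seen, the NOTCH2 value of the JUN vector with induction went from 0.18 to -0.04 and was not called either way.

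**Figure D3:**
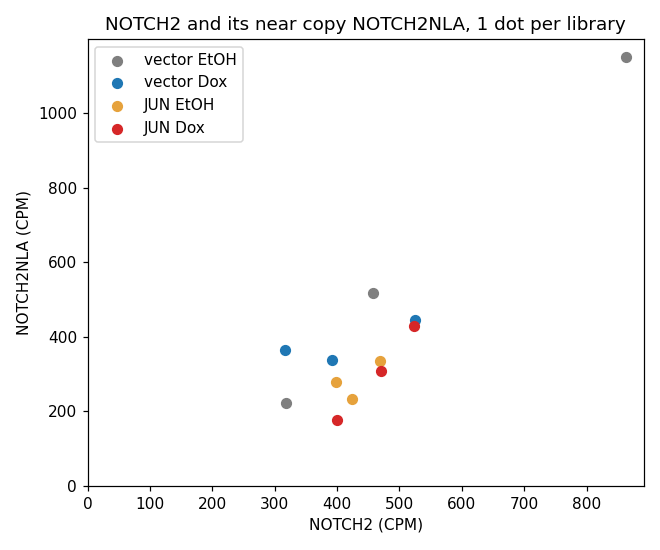
CPM of NOTCH2 on the horizontal axis and of its near copy NOTCH2NLA on the vertical axis, both linear from 0, with 1 dot for each of the 12 libraries coloured by group. The dot at the top right, vector EtOH replicate 3 with 864 and 1150 CPM, lies apart from the other 11 libraries.

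NOTCH3 (Entrez 4854, chr19:15269849-15311806, minus strand, GRCh37) was close to the counting floor. Its counts were 41, 7 and 13 in vector EtOH and 7, 6 and 7 in JUN EtOH, against 2, 3 and 0 in vector Dox and 3, 2 and 3 in JUN Dox. The vector EtOH libraries stood above both Dox groups, and both Dox groups were at or under 3 counts in each library. Summed and scaled to library size, vector EtOH held 12.3 times the NOTCH3 of vector Dox (61 against 5 counts, exact 95% counting interval 5.00 to 39.3). The interval covers counting error and not the spread between libraries, which was wide in vector EtOH, where replicate 1 gave most of the counts. The gene failed the filter on low counts, and a fit without any filter gave an adjusted p of 0.00121 for the induction in vector cells and of 0.292 for that in JUN cells. The gene passed the filter in 10 of 12 fits that left out 1 library, all but those without vector EtOH replicates 1 or 3. It was called lower there on induction in vector cells (adjusted p from 0.000996 to 0.0113). It passed only through those vector EtOH libraries, where it was high, so these calls add no support for the fall.

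Among the ligands, JAG1 fell and JAG2 rose on induction. JAG1 (Entrez 182, chr20:10618332-10654647, minus strand, GRCh37), the main Jagged ligand of many epithelia, stood at 38.5, 39.1 and 40.4 CPM in vector EtOH and at 21.2, 21.9 and 18.8 CPM in vector Dox. JUN EtOH had 44.3, 39.5 and 39.4 CPM, and JUN Dox had 26.7, 28 and 22.7 CPM. The Dox libraries lay below the EtOH libraries of both cell types, and those of JUN Dox lay above those of vector Dox.

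Induction lowered JAG1 by a log2 fold change of -0.93 (SE 0.11, adjusted p = 1.14e-05) in vector cells and of -0.67 (SE 0.10, adjusted p = 0.000344) in JUN cells, to 52.5% and 62.8% of the mean without induction. The difference between both inductions was 0.26 with an adjusted p of 0.708 and did not pass the test. The JUN vector left the JAG1 level at 0.06 without induction (adjusted p = 0.653, 95% interval -0.17 to 0.30). With induction JAG1 was higher in JUN cells by 0.32 (SE 0.11, adjusted p = 0.0299). That call was lost without JUN Dox replicate 1 (adjusted p = 0.0701), without JUN Dox replicate 2 (0.123), without vector Dox replicate 3 (0.119) and when only the 6 libraries compared were fitted (0.105).

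JAG2 (Entrez 3714, chr14:105607319-105635161, minus strand, GRCh37), the other Jagged ligand, gave 96.9, 84.7 and 87.9 CPM in vector EtOH and 104, 112 and 103 CPM in vector Dox. It gave 52.7, 54 and 54.9 CPM in JUN EtOH and 71.2, 69.7 and 71.8 CPM in JUN Dox. No group overlapped another, and the 6 JUN libraries were all below the 6 vector libraries.

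The JUN vector lowered JAG2 by a log2 fold change of -0.74 (SE 0.08, adjusted p = 1.10e-05) without and of -0.58 (SE 0.08, adjusted p = 9.13e-05) with induction. Induction raised it in JUN cells by 0.40 (SE 0.08, adjusted p = 0.00372). The rise in vector cells was 0.24 (SE 0.08, adjusted p = 0.0414) and stood at the edge of the test: 9 of 12 fits that each left out 1 library lost it, with adjusted p from 0.0528 to 0.167. The 3 fits that kept it were those without vector EtOH replicate 1, vector Dox replicate 1 or JUN Dox replicate 3. The call was also lost with median-ratio size factors (adjusted p = 0.0501), upper-quartile factors (0.0930), no filter (0.115), a minimum mean of 5 CPM (0.0551) and only the 6 libraries compared (0.114). With a correction for GC content the rise in vector cells was 0.37 (adjusted p = 0.00948) and that in JUN cells 0.47 (adjusted p = 0.00345). The same correction made the JAG2 values of the JUN vector smaller. They were -0.52 (adjusted p = 0.000865) without and -0.43 (adjusted p = 0.00352) with induction, and both were still called. JAG2 was also on a list of genes most induced by YAP5SA that the study drew from other libraries, and no other gene of the 10 was. That list had its own cutoffs on size and adjusted p, so being on it does not settle the rise seen here. HES4 and DLK2, from the other pathway genes, were on it too. On induction in vector cells HES4 was called higher, whereas DLK2 was not called (-0.21, adjusted p = 0.366).

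The balance of both Jagged ligands moved with both treatments. The count of JAG2 divided by that of JAG1 was 2.29 ± 0.201 (SD, n = 3) in vector EtOH and 5.16 ± 0.297 in vector Dox. In JUN cells it was 1.32 ± 0.111 with ethanol and 2.77 ± 0.354 with doxycycline. The lowest vector Dox library, at 4.89, was above the highest library of each other group. JUN Dox, from 2.48 to 3.17, and vector EtOH, from 2.17 to 2.52, were the groups that overlapped. This ratio was not tested.

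DLL1 (Entrez 28514, chr6:170591294-170615653, minus strand, GRCh37), a Delta-like ligand, was not detected above the counting floor. It had 5 counts in all, in 4 of 12 libraries, with 2 counts at most in any of them. Its span overlaps that of FAM120B on the other strand, and no fold change is given.

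LFNG (Entrez 3955, chr7:2552163-2568811, plus strand, GRCh37), the Fringe enzyme that extends sugars on Notch and so changes which ligands it answers to, was low in all groups. Its CPM was 1.75, 1.25 and 1.26 in vector EtOH and 1.13, 1.08 and 1.45 in vector Dox. In JUN cells it was 1.98, 1.81 and 1.83 with ethanol and 0.652, 0.648 and 0.639 with doxycycline. The last of these values rest on 13, 15 and 18 counts. Every JUN Dox library was below every other library, and JUN EtOH was the highest group.

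YAP5SA induction lowered LFNG in JUN cells by a log2 fold change of -1.53 (SE 0.26, adjusted p = 0.000675), to 34.5% of its mean. In vector cells the value was -0.22 (SE 0.24, adjusted p = 0.538), which was not called. The difference between both inductions was -1.31 (SE 0.36), with an unadjusted p of 0.0024 and an adjusted p of 0.119 that did not pass the test over all genes. With induction LFNG was lower in JUN than in vector cells, with a log2 fold change of -0.91 (SE 0.27, adjusted p = 0.0164), a call that was lost without vector Dox replicate 3 (adjusted p = 0.0679) and with only the 6 libraries compared (0.0577). Without induction the difference was 0.39 (adjusted p = 0.2).

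MAML2 (Entrez 84441, chr11:95709762-96076359, minus strand, GRCh37), a Mastermind-like coactivator of the Notch complex in the nucleus, was higher in JUN cells. Its level was 13.7, 9.03 and 12.7 CPM in vector EtOH and 5.23, 11 and 10.7 CPM in vector Dox, against 19, 19.2 and 18.7 CPM in JUN EtOH and 16.5, 17.2 and 15.9 CPM in JUN Dox. All 6 JUN libraries stood above all 6 vector libraries, and vector Dox replicate 1 was the lowest of the 12. The log2 fold change of the JUN vector was 0.68 (SE 0.21, adjusted p = 0.0196) without and 0.88 (SE 0.21, adjusted p = 0.00528) with induction.

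The MAML2 call without induction was lost without vector EtOH replicate 2 (adjusted p = 0.0929) and without JUN EtOH replicates 1 or 2, where the lowest adjusted p was 0.0525. YAP5SA induction gave -0.41 in vector cells (adjusted p = 0.178) and -0.20 in JUN cells (adjusted p = 0.556), neither of which was called.

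HES1 (Entrez 3280, chr3:193853937-193856521, plus strand, GRCh37), the repressor that is the best known direct target of Notch, fell most of the 8 genes on induction. Its promoter is the first of those printed above. Its CPM was 19.8, 20.3 and 19.3 in vector EtOH and 2.92, 2.39 and 2.93 in vector Dox. In JUN cells it was 14.2, 15.2 and 15.3 with ethanol and 3.46, 5.23 and 4.62 with doxycycline. No group overlapped another, and all 6 Dox libraries were below all 6 EtOH libraries.

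Induction lowered HES1 in vector cells by a log2 fold change of -2.85 (SE 0.15, adjusted p = 4.49e-09), a 7.19-fold fall to 13.9% of its mean. In JUN cells the value was -1.74 (SE 0.14, adjusted p = 8.98e-07), a 3.34-fold fall to 29.8%. The difference between both falls was 1.11 (SE 0.21, adjusted p = 0.0141), so the fall was smaller in JUN cells. It was called in all 12 fits that each left out 1 library, with adjusted p from 0.00188 to 0.0491.

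The JUN vector moved HES1 in opposite directions without and with induction. Without it, HES1 was lower in JUN cells by a log2 fold change of -0.41 (SE 0.13, adjusted p = 0.0226). With it, HES1 was higher in JUN cells by 0.70 (SE 0.16, adjusted p = 0.00379). The call without induction was lost in 5 fits that each left out 1 library, namely any of the 3 vector EtOH libraries or JUN EtOH replicates 1 or 2, with adjusted p from 0.0534 to 0.0899. The call with induction was kept in all 12. The summed level of the basal markers was also lower in both Dox groups, as given above, and its part in the fall of HES1 and JAG1 was not tested.

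HEY1 (Entrez 23462), a repressor of the HEY family that Notch also switches on, was measured with few counts. They were 14, 2 and 19 in vector EtOH and 27, 17 and 18 in JUN EtOH, against 2, 3 and 2 in vector Dox and 12, 16 and 6 in JUN Dox. Vector EtOH replicate 2 was as low as the vector Dox libraries, so these groups overlapped, whereas the JUN Dox libraries were all above those of vector Dox.

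Scaled to library size, HEY1 was 5.05 times as high in vector EtOH as in vector Dox (35 against 7 counts, exact 95% counting interval 2.21 to 13.5). The fitted log2 fold change of -2.26 (SE 0.74, adjusted p = 0.0317) depends on the prior count at such levels. It was lost without vector EtOH replicates 1 or 3 and without any of the vector Dox libraries, with adjusted p from 0.0516 to 0.157. JUN Dox held 4.73 times the HEY1 of vector Dox (34 against 7 counts, exact 95% counting interval 2.06 to 12.6), with an adjusted p of 0.0322 that was lost without vector Dox replicates 1 or 3 or JUN Dox replicates 1 or 2 (0.0771 to 0.111). Induction in JUN cells gave a log2 fold change of -0.90 (adjusted p = 0.248), which was not called. For both HEY1 calls, the gene failed the low-count filter when only the libraries compared were fitted. It passed in the main fit with the help of libraries outside each comparison, so neither call could be checked in that way.

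Among the other HES genes, HES4 and HES7 rose on induction. HES4, whose promoter is printed beside that of HES1 and which was singled out after its values were seen, stood at 27.6, 36.5 and 22.2 CPM in vector EtOH and at 67.3, 43.3 and 46.2 CPM in vector Dox. It stood at 15, 15.8 and 16.9 CPM in JUN EtOH and at 24.3, 33.1 and 34.3 CPM in JUN Dox. Both Dox groups lay above their EtOH groups. Induction raised HES4 by 0.86 (SE 0.19, adjusted p = 0.00316) in vector cells and by 0.95 (SE 0.20, adjusted p = 0.00313) in JUN cells on the log2 scale. The JUN vector lowered it by -0.85 (adjusted p = 0.0036) without and -0.77 (adjusted p = 0.00581) with induction. With a correction for GC content these were -0.44 (adjusted p = 0.0502), which lost the call, and -0.48 (adjusted p = 0.0315).

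HES7, a repressor known from the segmentation clock of the embryo, had means of 25.7 CPM in vector EtOH and 37.7 CPM in vector Dox, against 6.71 CPM in JUN EtOH and 14.1 CPM in JUN Dox. It rose by 0.55 (adjusted p = 0.00231) and 1.08 (adjusted p = 3.15e-05) with induction in vector and JUN cells and was lower with the JUN vector by -1.94 and -1.41 without and with induction. HES2 was also lower with the JUN vector, both without induction (adjusted p = 0.00312) and with it (-1.43, adjusted p = 0.000384). Its fall of -0.74 on induction in JUN cells (adjusted p = 0.0493) was lost in 7 of 12 fits that left out 1 library, all but those without vector Dox replicates 1, 2 or 3, JUN Dox replicate 1 or JUN EtOH replicate 3, with adjusted p from 0.0594 to 0.170. It was also lost with only the 6 libraries compared, with DESeq2, with no filter, with the replicate number as a block and with a correction for GC content (adjusted p from 0.0522 to 0.0862 for HES2).

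NRARP, a target gene whose product binds the Notch complex and dampens it, had 8.36, 6.93 and 8.21 CPM in vector EtOH and 12.6, 13.7 and 12.8 CPM in vector Dox. It had 1.58, 1.26 and 1.92 CPM in JUN EtOH and 1.45, 1.73 and 0.888 CPM in JUN Dox, so both JUN groups were below both vector groups. NRARP rose by 0.73 (SE 0.18, adjusted p = 0.00526) on induction in vector cells. In JUN cells the value was -0.24 (adjusted p = 0.536), which was not called and was 0.013 without JUN Dox replicate 3. The difference between these inductions, -0.98, did not pass the test (adjusted p = 0.183). The JUN vector lowered it by a log2 fold change of -2.31 (SE 0.21, adjusted p = 1.05e-06) without and of -3.28 (SE 0.21, adjusted p = 3.07e-08) with induction.

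Of the 8 further genes listed as targets or as HES or HEY family members, 5 could be tested, since HES5, HEY2 and HEYL were too low. Whether each of them answers to Notch in these cells was not tested. Of these 5, induction raised 3 in vector cells and lowered none, beside 15.6% and 14.4% of all genes. In JUN cells it raised 2 and lowered 1, beside 11.2% and 10.3%. The JUN vector lowered 4 of 5 and raised none, both without and with induction, where 18.9% and 17.2% of all genes were lower. HES6 was the gene that no comparison called.

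**Figure D4:**
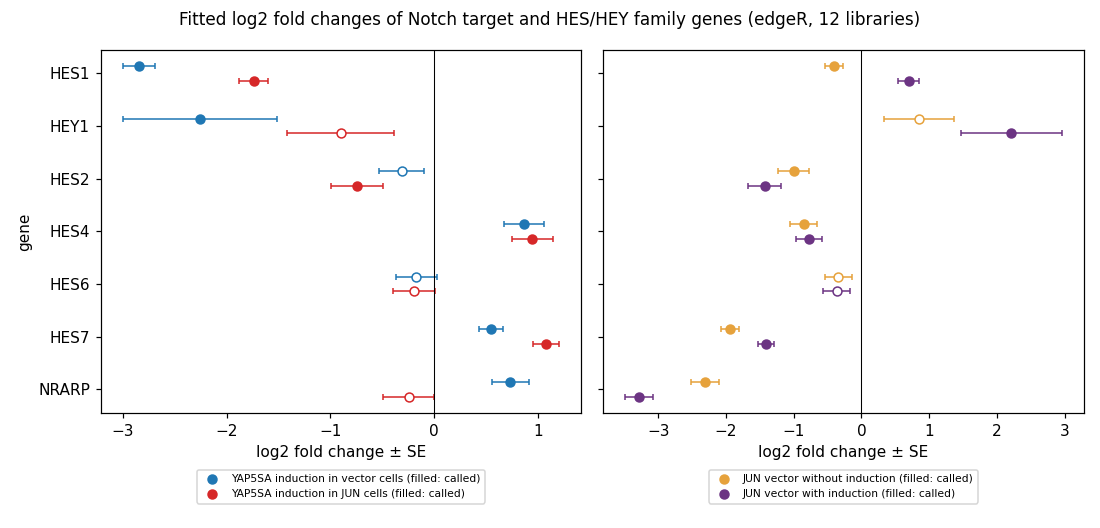
Fitted log2 fold changes with standard errors of the 7 target and HES or HEY family genes that were tested, for YAP5SA induction on the left and the JUN vector on the right, with filled dots where the adjusted p was under 0.05. On induction HES1 lay to the left of 0 in both cell types while HES4 and HES7 lay to the right, and with the JUN vector HES2, HES4, HES7 and NRARP all lay to the left.

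The other genes of the pathway were taken from a list of 47, of which 39 were tested. Induction in vector cells called 14 of the 39, 5 higher and 9 lower, beside 30.1% of all genes, with a median log2 fold change of -0.09. In JUN cells it called 13, 4 higher and 9 lower, beside 21.4% of all genes, with a median of -0.15, and 8 were left without JUN EtOH replicate 2 or vector EtOH replicate 3. The JUN vector called 22 without induction, 14 higher and 8 lower, beside 39.0% of all genes, with a median of 0.17. With induction it called 20, 13 higher and 7 lower, beside 35.6% of all genes, with a median of 0.08. No gene of the 39 differed between both inductions by edgeR's test, 6 had an unadjusted p under 0.05, DESeq2 called 1, DNER, and edgeR called 1 without vector Dox replicate 1.

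Of the 9 tested genes that cut the receptor, the JUN vector raised 5 and lowered 1 without induction, beside 20.1% and 18.9% of all genes. With induction it raised 4 and lowered none, beside 18.4% and 17.2%. APH1B, a subunit of gamma-secretase, rose by 1.83 (SE 0.24, adjusted p = 4.00e-05) and 2.21 (SE 0.26, adjusted p = 1.31e-05). The subunit NCSTN rose by 0.69 and 0.70, and the protease ADAM17 by 0.59 and 0.49. ADAM10 rose by 0.59 without induction, and its value of 0.34 with induction did not pass the test (adjusted p = 0.0833), but it passed without vector Dox replicate 2 (adjusted p = 0.0157) or JUN Dox replicate 3 (adjusted p = 0.0304).

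Induction lowered 3 of the 9 in each cell type, FURIN and NCSTN among them, and raised none, where 14.4% of all genes were lower in vector cells and 10.3% in JUN cells. FURIN, the protease of the first cut, had log2 fold changes of -0.61 with the empty vector and -0.56 with the JUN vector. Those of NCSTN were -0.35 and -0.34. In vector cells the call of NCSTN was lost without vector EtOH replicates 1 or 3 or vector Dox replicates 1 or 3 (adjusted p from 0.0737 to 0.105). The NCSTN call in JUN cells was lost in 8 of 12 fits that left out 1 library, with adjusted p from 0.0520 to 0.171, and with only the 6 libraries compared (adjusted p = 0.0501). Of these 9 genes APH1B alone reached a change of 1 on the log2 scale, and the others named here were picked after their values were seen. NCSTN and ADAM17 each share exon positions with a gene on the other strand, COPA and IAH1.

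DNER, a transmembrane protein that can bind Notch, rose most of the pathway genes tested with the JUN vector. It gave 100, 88.2 and 79.8 CPM in vector EtOH and 35.3, 39.5 and 36.8 CPM in vector Dox. In JUN cells it gave 424, 418 and 377 CPM with ethanol and 241, 261 and 224 CPM with doxycycline. No group overlapped another. The JUN vector raised DNER by 2.18 (SE 0.11, adjusted p = 3.13e-09) without and by 2.70 (SE 0.11, adjusted p = 4.63e-10) with induction on the log2 scale. Induction lowered it by -1.27 (SE 0.11, adjusted p = 6.62e-07) in vector cells and by -0.75 (SE 0.10, adjusted p = 0.000149) in JUN cells.

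DTX4, a ubiquitin ligase of the Deltex family, was lower in all 4 comparisons, by -0.56 and -1.20 with induction in vector and JUN cells and by -1.21 and -1.84 with the JUN vector without and with induction. MAML3, a further Mastermind-like coactivator, fell with induction, with log2 fold changes of -1.37 in vector cells and -1.14 in JUN cells. Its span overlaps MGST2 on the other strand, which had a mean count of 3710 beside 82.4 for MAML3. RBPJ, the DNA-binding partner of Notch, was higher with the JUN vector by 0.44 (adjusted p = 0.00105) with induction.

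EP300, an acetyltransferase of the Notch complex, was higher in JUN EtOH than in vector EtOH by 1.75 (SE 0.42, adjusted p = 0.00489), with 18.3, 17.6 and 8.26 CPM against 6.12, 3.14 and 3.77 CPM. With induction the value was 0.85 (adjusted p = 0.123), which was not called, and it was 1.20 without JUN Dox replicate 3 (adjusted p = 0.0243). NOTCH4, a receptor of endothelium, was low, with means of 0.881 CPM in vector EtOH and from 2.33 to 2.43 CPM in the other 3 groups. Its exons overlap those of GPSM3 on the same strand, which had a mean count of 36.8 beside 47.3 for NOTCH4, so these reads cannot be assigned. The endothelial markers PECAM1, CDH5 and VWF summed to 2.09 CPM at most in any library.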

How the data were processed

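The deposited file holds raw read counts per gene for 12 RNA-seq libraries, which the authors made from poly(A)-selected RNA sequenced as single-end reads of 75 bases. According to the submitters' processing notes, the tools were cutadapt 4.2 and Bowtie2 2.3.5.1, although the study's methods name another Bowtie2 version. These methods describe trimming, alignment to hg19 and counting with countOverlaps of GenomicRanges. The gene annotation, the use of strand and the treatment of introns in the counting are not given in the sources used here. Among 153 pairs of a gene nested inside another with no shared exon, the host count lay within 10% of that of the nested gene in 22, so intronic reads may have been counted for some genes.

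Symbols came from RefSeq by Entrez identifier (99.4% matched), gene positions from GENCODE on GRCh37, the assembly of hg19, and promoters from RefSeq on GRCh38.p14. CPM was computed here with library sizes scaled by TMM. Genes past filterByExpr (minimum count 10, minimum total 15) were tested over all 12 libraries with edgeR 4.0.16 in R 4.3.3 (glmQLFit, glmQLFTest, group means, Benjamini-Hochberg over 14775 genes). DESeq2 1.42.0, the study's tool, was an alternative, as were other scaling factors and filters, a replicate block and the removal of each library. A GC correction, with edgeR offsets from a lowess fit per library, was a further alternative. The script was checked on simulated counts. All pairs of replicates differed by more than sampling noise.

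Named were the 10 genes, JUN and YAP1, overlapping or near-identical genes, and other pathway genes with a called log2 change of at least 1 and a mean of at least 1 CPM. HES4, DLK2, NCSTN, FURIN, ADAM10, ADAM17, HES6 and RBPJ fall outside this rule and were picked after their values were seen. The genes and lists were chosen with earlier results of these data known. Groups came from the sample titles.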

Additional observations from a re-analysis of the deposited data

Results flagged for a closer look

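The fall of HES1 on YAP5SA induction differed between vector and JUN cells by a test of the difference itself. The log2 fold change in JUN cells less the one in vector cells was 1.11 (edgeR, adjusted p = 0.0141), and in each cell type all 3 Dox libraries were below all 3 EtOH libraries. JUN itself differed by the same test, with a value of -2.03 (adjusted p = 0.000133): its mean went from 47.6 to 189.6 CPM on induction in vector cells and from 1278 to 1248 CPM in JUN cells, where reads of the vector and of the endogenous gene cannot be told apart.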

How the results depend on the processing

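Of the 19 calls among the 10 genes, 11 held under every alternative run and 8 were lost under at least 1, and none changed sign; of 392 alternative values of these calls, 351 kept direction and call. Fits of only the libraries compared called 2 genes for induction in vector cells and 3 for the JUN vector with induction, in place of 4 and 6. In both of these fits HEY1 failed the filter on low counts and was not tested. A minimum mean of 5 CPM, which left out low genes such as HEY1, called 2 for induction in vector cells. Leaving out 1 library at a time called 2 to 5 of the genes for induction in vector cells, 1 to 5 for the JUN vector without induction, 4 to 4 for induction in JUN cells, 3 to 6 for the JUN vector with induction and 1 to 1 for the difference between inductions. In 10 of these 12 fits NOTCH3 was tested too; over the 8 genes alone the first 2 ranges were 2 to 4 and 1 to 4. For the other pathway genes these ranges were 10 to 15, 18 to 25, 8 to 14, 16 to 23 and 0 to 1 in the same order, and DESeq2 called 1 for the difference. Some values that were not called changed sign: NOTCH2 without vector EtOH replicate 3, where leaving out 1 library gave log2 values from -0.684 to 0.081 for induction in vector cells and from -0.619 to 0.156 for the JUN vector without induction, NOTCH2 summed with its copy (-0.043 for the JUN vector with induction), and the difference between inductions without vector Dox replicate 1, with ranges of -0.053 to 0.337 in NOTCH1 and -0.058 to 0.384 in MAML2. NRARP on induction in JUN cells also did, without JUN Dox replicate 3, with a range of -0.47 to 0.013. The cause of these changes was not tested. With the replicate number as a block, 4, 4, 4, 6 and 1 of the 8 tested genes were called and 14, 22, 12, 21 and 0 of the other pathway genes. The labels give the groups the same replicate numbers, but the study's methods name no block, so the number served only as an alternative. Same-numbered libraries correlated at over 0.1 in 7 of 18 pairs (-0.258 to 0.466), and 7 of 12 libraries were closest to one of their own number. The median correlation was 0.0875 for same-numbered pairs and -0.0475 for pairs with different numbers. Whether the numbers pair the samples was left undecided. JUN EtOH and JUN Dox correlated at 0.283 in replicate 1 and at 0.466 in replicate 3, but at 0.012 in replicate 2. Depth limited LFNG, HEY1, NOTCH3 and DLL1, with at most 46, 27, 41 and 2 counts in any library.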
